A study of Homo sapiens with 6 samples.

Results

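The genes described here encode the enzymes that make cholesterol and fatty acids, together with the proteins that switch these enzymes on and off. They were taken by name from a list of 44 genes, and all 44 had a row among the 27776 genes of the deposited count table. Their expression was measured by sequencing polyadenylated RNA of MDA-MB-231, a line of human triple-negative breast cancer cells. There were 3 khellin libraries, from cells given khellin, a furanochromone of the plant Ammi visnaga, and 3 control libraries. The labels give neither a dose nor an exposure time. The sample titles name the second group control, while the design text of the series names it by resistance to docetaxel, a taxane used against breast cancer, so the sources do not settle whether the control cells, or both groups, were resistant. Replicates are named biological in the titles, yet separate cultures are mentioned nowhere in the sources used here, and the p-values therefore measure the spread between these samples, which may be technical.

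Cells build cholesterol from acetyl-CoA through mevalonate, farnesyl diphosphate, squalene and lanosterol. They build fatty acids from the same acetyl-CoA through malonyl-CoA and palmitate, which is then elongated and desaturated. Both branches are controlled by the SREBP transcription factors, which are made as membrane proteins of the endoplasmic reticulum. The escort protein SCAP carries SREBP to the Golgi, where proteases release its active part, and INSIG proteins hold SCAP back when sterols are plentiful. SREBP2, encoded by SREBF2, is known mainly for the sterol genes, and SREBP1, encoded by SREBF1, mainly for the fatty acid genes. Proliferating cancer cells are known to draw on both branches for membrane lipids.

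Depth and identity of the libraries were checked first. Total counts ranged over the 6 libraries between 28631578 and 30956610, and 3 counts, used as the floor of detection, corresponded to 0.0969 to 0.105 CPM (counts scaled by library size and composition). Mesenchymal markers of the line were present, with summed levels of 3833 to 3992 CPM over 6 genes in khellin and 3591 to 3815 CPM in control libraries. Of 7 luminal markers, ESR1, PGR and CDH1 had at most 22 counts in every library, while KRT18 averaged 86.6 CPM in khellin and 79.4 CPM in control libraries. GATA3, FOXA1 and EPCAM were detected at low levels, with means of 4.09 to 6.52 CPM in khellin and 4.53 to 6.04 CPM in control libraries. All 5 adipocyte markers had at most 22 counts in every library, with a summed level of 0.759 to 1.07 CPM in khellin and 0.642 to 0.761 CPM in control libraries, and so did the 4 measured hepatocyte markers (0.0651 to 0.276 CPM in khellin and 0.101 to 0.165 CPM in control libraries). Markers of these lipid-handling cell types were thus near 0. Fewer expressing cells and less RNA per cell cannot be told apart in such bulk libraries.

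Most changes in these genes were small rises. Of the 44 genes, 42 passed the filter on low counts, and 15 of them rose with khellin, 1 fell and 26 did not pass the test (edgeR's quasi-likelihood test, Benjamini-Hochberg adjusted p under 0.05 over all 15865 genes tested). Over all tested genes 10.6% were called higher and 8.82% lower. The median log2 fold change of the 42 genes, khellin over control, was 0.14, with a range of -0.31 to 0.55, beside a median of 0.0024 over all tested genes. The 3 khellin libraries lay above all 3 control libraries for 19 genes and below them for 3, where 20.2% and 18% of all tested genes did so. The largest rises were those of HMGCS1, ACACB, HSD17B7 and CYP51A1, and the fall was that of ELOVL1. Of these 16 calls, 9 held under all 14 alternative settings, those of ACAT2, HMGCS1, MVD, HSD17B7, ACSS2, ACACB, FASN, FADS2 and ELOVL1. The other 7 (SREBF2, INSIG1, FDPS, FDFT1, CYP51A1, SCD and FADS1) were lost when single libraries were left out, as given with each gene. Leaving out 1 library gave 9 rises without khellin replicate 1, 8 without khellin replicate 2, 8 without khellin replicate 3 and 8 without control replicate 2. A smooth correction for length and GC content of genes, added after the data were examined, called 20 genes higher and 5 lower, with lower calls for ELOVL1, SCAP, SQLE, DHCR7 and LPIN1.

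**Figure D1:**
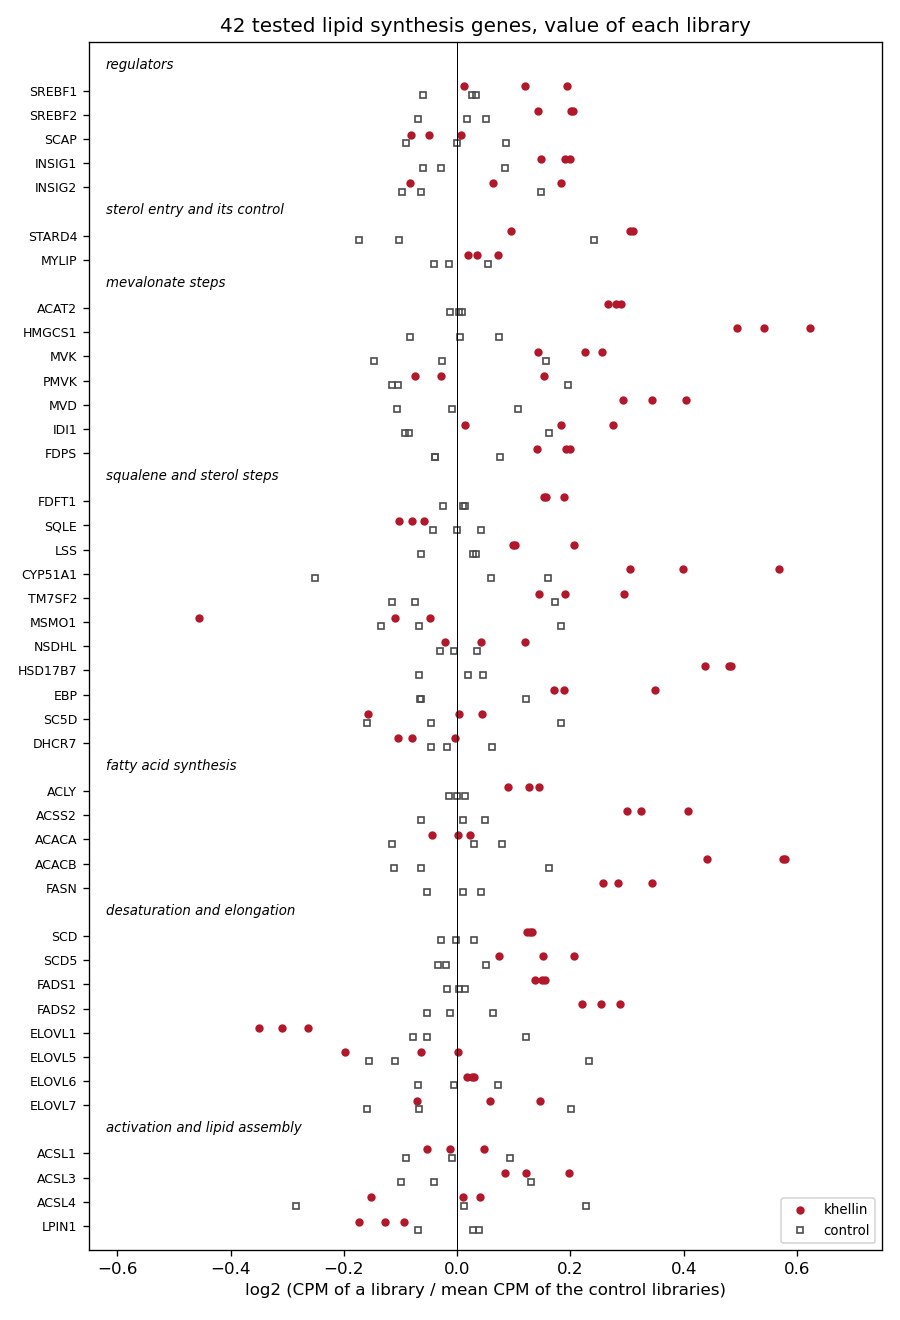
Level of each of the 42 tested genes in each library, as the log2 of its CPM over the mean CPM of the 3 control libraries, with genes grouped by part of the pathway. Filled circles are khellin and open squares control libraries; for HMGCS1 the circles stand furthest right of the squares, and for ELOVL1 they stand left of them.

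Among the 5 regulators 2 rose, SREBF2 and INSIG1, and 0 fell, nor did any fall with DESeq2 or at an unadjusted p under 0.05. With the length and GC correction SCAP was called lower, with a log2 fold change of -0.11 (edgeR adjusted p = 0.0218). SREBF2 (chromosome 22, 41833079 to 41907307, plus strand of GRCh38) had 231, 241 and 240.3 CPM in khellin libraries 1, 2 and 3, against 199, 212 and 216 CPM in control libraries 1, 2 and 3. All 3 khellin libraries were above all 3 control libraries, and SREBF2 rose with a log2 fold change of 0.18 (SE 0.0462, edgeR adjusted p = 0.0221). This call was lost without khellin replicate 1, 2 or 3 or control replicate 2 (edgeR adjusted p of 0.0575, 0.082, 0.106 and 0.0733). INSIG1, the retention protein whose own gene is a classic SREBP target, had 226, 219.8 and 228 CPM in khellin libraries 1, 2 and 3, against 210.4, 194 and 190.4 CPM in control libraries 1, 2 and 3. Its groups did not overlap either, and it rose with a log2 fold change of 0.18 (SE 0.0486, edgeR adjusted p = 0.0297). Leaving out khellin replicate 1, 2 or 3 or control replicate 2 ended this call too (edgeR adjusted p of 0.112, 0.0622, 0.127 and 0.122).

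SREBF1, the gene of SREBP1, had 69.8, 79.2 and 75.3 CPM in the khellin libraries and 66.4, 70.8 and 70.5 CPM in the control libraries. The lowest khellin library lay under the 2 highest control libraries, and the log2 fold change of 0.11 (SE 0.0594, edgeR adjusted p = 0.229) did not pass the test. SCAP, the escort, had 97.9, 104 and 100.1 CPM in the khellin libraries and 97.2, 104 and 110.0 CPM in the control libraries, which overlapped, with a log2 fold change of -0.041 (SE 0.0555, edgeR adjusted p = 0.654). INSIG2, the second retention protein, had 47.2, 39.3 and 43.5 CPM in the khellin libraries and 46.1, 39.8 and 38.9 CPM in the control libraries, again overlapping, with a log2 fold change of 0.059 (SE 0.0875, edgeR adjusted p = 0.687). The log2 ratio of SREBF1 to SREBF2 counts, which needs no scaling, was -1.72, -1.61 and -1.67 in the khellin libraries and -1.58, -1.58 and -1.62 in the control libraries. Its mean was -1.67 ± 0.060 in khellin and -1.59 ± 0.022 in control libraries (SD, n = 3 each), a difference of -0.075 with an exact two-sided permutation p of 0.2, where 3 libraries against 3 cannot give a p below 0.1. A difference between the changes of SREBF1 and SREBF2 was thus not shown. Per kilobase of merged exons, SREBF2 stood at 31.4 ± 0.753 CPM per kilobase in khellin and 27.7 ± 1.18 in control libraries, and SREBF1 at 9.31 ± 0.587 CPM per kilobase in khellin and 8.62 ± 0.307 in control libraries (SD, n = 3 each). The level of SREBF2 exceeded that of SREBF1 in every library.

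Promoter windows were read to see which known control letters lie next to these genes. RefSeq windows of GRCh38.p14, 300 bases long with 250 before and 50 after the start of transcription, were at hand for 40 of the 44 genes, with 58 windows in all. The sterol regulatory element, the SREBP site, was searched as TCACNCCAC, the CCAAT box, bound by the SREBP partner NF-Y, as CCAAT, the Sp1 box as GGGCGG, and the E-box as CACGTG. Each was searched on both strands, and 7 pairs of matches overlapped. The sequences below run 5′ to 3′ on the gene's strand, begin 250 bases before the RefSeq start, and end 30 bases before it or, if earlier, at the last base outside the gene as the count table bounds it. They were chosen as the promoters of the pathway's switch genes SREBF2 and INSIG1, of sterol enzymes that rose (HMGCS1, MVD, FDPS and HSD17B7), of the sterol enzyme MSMO1, which did not pass the test, and of ELOVL1, which fell. The window of CYP51A1, the other sterol enzyme with a window that rose, lies inside the gene as the count table bounds it and is not printed. Capitals mark whole matches to the sterol regulatory element or the CCAAT box (ATTGG on the other strand).
SREBF2, chr22:41832855-41833075, plus strand: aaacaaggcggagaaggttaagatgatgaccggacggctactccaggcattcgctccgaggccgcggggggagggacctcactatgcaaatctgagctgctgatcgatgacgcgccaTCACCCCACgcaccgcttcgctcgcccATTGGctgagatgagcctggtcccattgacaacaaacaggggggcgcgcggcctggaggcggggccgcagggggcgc
INSIG1, chr7:155297628-155297775, plus strand: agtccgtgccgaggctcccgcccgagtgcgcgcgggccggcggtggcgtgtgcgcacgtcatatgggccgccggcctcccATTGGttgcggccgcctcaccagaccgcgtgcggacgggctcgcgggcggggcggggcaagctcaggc
HMGCS1, chr5:43313513-43313662, minus strand: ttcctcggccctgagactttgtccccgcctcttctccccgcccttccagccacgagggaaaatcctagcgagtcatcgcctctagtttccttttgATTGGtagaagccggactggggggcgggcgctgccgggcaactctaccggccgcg
MVD, chr16:88663162-88663341, minus strand: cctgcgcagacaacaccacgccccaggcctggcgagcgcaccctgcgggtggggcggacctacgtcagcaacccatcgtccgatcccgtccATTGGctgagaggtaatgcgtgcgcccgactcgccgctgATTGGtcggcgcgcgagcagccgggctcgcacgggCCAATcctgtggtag
FDPS, chr1:155308616-155308747, plus strand: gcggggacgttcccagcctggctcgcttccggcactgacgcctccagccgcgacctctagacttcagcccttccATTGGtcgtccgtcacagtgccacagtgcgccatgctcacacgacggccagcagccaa
HSD17B7, chr1:162790452-162790672, plus strand: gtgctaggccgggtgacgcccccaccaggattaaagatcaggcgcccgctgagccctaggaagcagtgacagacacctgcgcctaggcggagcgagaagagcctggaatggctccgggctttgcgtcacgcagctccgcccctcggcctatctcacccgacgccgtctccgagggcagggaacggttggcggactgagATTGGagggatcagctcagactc
MSMO1, chr4:165327419-165327639, plus strand: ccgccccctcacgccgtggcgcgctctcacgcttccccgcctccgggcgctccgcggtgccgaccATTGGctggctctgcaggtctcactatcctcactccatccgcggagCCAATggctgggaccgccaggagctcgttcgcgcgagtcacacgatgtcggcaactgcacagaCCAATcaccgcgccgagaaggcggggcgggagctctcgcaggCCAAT
ELOVL1, chr1:43368075-43368261, minus strand: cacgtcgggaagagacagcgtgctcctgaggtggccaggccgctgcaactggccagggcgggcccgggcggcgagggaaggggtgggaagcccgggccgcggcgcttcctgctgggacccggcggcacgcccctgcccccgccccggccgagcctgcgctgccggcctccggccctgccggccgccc

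Many of these promoters hold a CCAAT box. It was in a window of 30 of the 40 genes (75%), and of 13 of 15 genes of the sterol branch (86.7%) and 10 of 13 of the fatty acid branch (76.9%), where 39.7% of all 27305 genes with a window had it. MSMO1 shows 4 and MVD 3 in the stretches above, but these differ in length, so the marked boxes cannot be compared between genes. The stretches have 221 bases for MSMO1, 180 for MVD, 150 for HMGCS1 and 132 for FDPS. In the same windows, further boxes begin 122 and 51 bases before the start of FDPS and 100 before that of HMGCS1. Another begins 8 bases after the start of HSD17B7. They run past or lie beyond the printed ends and are not marked. The window of ELOVL1 holds 1, which begins 65 bases before the start and runs past the end of the printed stretch, so it is not marked. The window of CYP51A1 holds none. Of the 12 genes with a window that rose 10 had it (83.3%), and of the 25 that did not pass the test 17 had it (68%). Within the sterol branch the order was the other way, with 4 of 5 genes that rose (80%) and 9 of 10 that did not pass the test (90%). Sp1 boxes were in a window of 36 of 40 genes (90%), beside 48.3% of all genes. These backgrounds take every gene with a window, whether expressed in these cells or not. The 40 genes have 58 windows and the 27305 genes 35116, and a match in any window of a gene counted. A share particular to this pathway is thus not shown. The exact sterol regulatory element was in a window of 2 of the 40 genes (5%, beside 1.39% of all genes), SREBF2, where it begins 133 bases before the start, and ACSL1. No gene of either enzyme branch held it in these windows, so the search by exact letters says nothing on SREBP binding there. The E-box was in a window of 5 of the 40 genes (12.5%, beside 8.77% of all genes), among them INSIG1. These matches describe letters and are not measured binding sites.

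Genes of sterol entry showed no called change. STARD4, which carries sterol between membranes, had 105, 90.6 and 105 CPM in the khellin libraries and 100.3, 79 and 75.2 CPM in the control libraries, with a log2 fold change of 0.24 (SE 0.109, edgeR adjusted p = 0.163). MYLIP, a ubiquitin ligase that removes lipoprotein receptors, had a log2 fold change of 0.042 (SE 0.0661, edgeR adjusted p = 0.701). NPC1L1, the cholesterol transporter of the gut, had 3, 1 and 4 counts in the khellin and 1, 3 and 3 counts in the control libraries and stood under the filter. At an unadjusted p under 0.05 none of the 2 tested genes passed, and DESeq2 called none.

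The mevalonate steps held HMGCS1, the largest rise among the 42 genes. Of 7 genes 4 rose and 0 fell, with a median log2 fold change of 0.21. HMGCS1 (chromosome 5, 43287470 to 43313512, minus strand), which condenses acetyl units into HMG-CoA, had 134, 130.0 and 142 CPM in khellin libraries 1, 2 and 3, against 92.7, 97.2 and 87.2 CPM in control libraries 1, 2 and 3. Every khellin library stood well above every control library. Its mean was 136 ± 6.14 CPM in khellin and 92.3 ± 5.01 CPM in control libraries (SD, n = 3 each), a rise of 46.8% with a log2 fold change of 0.55 (SE 0.0558, edgeR adjusted p = 0.000205). The step before it is catalysed by ACAT2, the cytosolic thiolase that joins acetyl-CoA units, which had 179, 178 and 177 CPM in the khellin libraries and 145, 148 and 147 CPM in the control libraries. The replicates of ACAT2 lay close together and the groups far apart, and the gene rose with a log2 fold change of 0.28 (SE 0.0392, edgeR adjusted p = 0.0013).

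Further along, MVD, the decarboxylase that yields isopentenyl diphosphate, had 72.2, 75.2 and 69.6 CPM in the khellin libraries and 52.8, 56.5 and 61.3 CPM in the control libraries. Its libraries separated by group, and MVD rose with a log2 fold change of 0.35 (SE 0.0646, edgeR adjusted p = 0.00572). FDPS, which assembles farnesyl diphosphate, had 188, 196 and 195 CPM in the khellin libraries and 166, 166 and 180.0 CPM in the control libraries. It too separated by group and rose with a log2 fold change of 0.18 (SE 0.0473, edgeR adjusted p = 0.0275), but the call was lost with DESeq2 (adjusted p = 0.06) and without khellin replicate 1, 2 or 3 or control replicate 2 (edgeR adjusted p of 0.0696, 0.0911, 0.119 and 0.123). The steps between showed no called change. The kinase MVK had 48.2, 49.3 and 45.5 CPM in the khellin libraries and 37.3, 40.5 and 46 CPM in the control libraries, where control library 3 reached into the khellin range, with a log2 fold change of 0.21 (SE 0.0798, edgeR adjusted p = 0.101). The kinase PMVK had a log2 fold change of 0.019 (SE 0.0992, edgeR adjusted p = 0.917). IDI1, the isomerase of isopentenyl diphosphate, had 245, 218 and 261 CPM in the khellin libraries and 242, 203 and 204 CPM in the control libraries, overlapping, with a log2 fold change of 0.16 (SE 0.0856, edgeR adjusted p = 0.229).

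After farnesyl diphosphate, the enzymes of squalene and sterol formation were mixed. Of 11 genes 3 rose and 0 fell, with a median log2 fold change of 0.14. FDFT1, squalene synthase and the committed step towards sterols, had 336, 344 and 335 CPM in the khellin libraries and 296, 304 and 304 CPM in the control libraries. The groups did not overlap, and FDFT1 rose with a log2 fold change of 0.17 (SE 0.0383, edgeR adjusted p = 0.0149). That call was lost without khellin replicate 1, 2 or 3 or control replicate 2 (edgeR adjusted p of 0.0654, 0.0638, 0.0692 and 0.063). SQLE, squalene epoxidase and a rate-setting enzyme, had 79.1, 76.7 and 77.9 CPM in khellin libraries 1, 2 and 3, against 84.7, 82.3 and 80 CPM in control libraries 1, 2 and 3. All khellin libraries lay below all control libraries, yet by little, and the log2 fold change of -0.080 (SE 0.0468, edgeR adjusted p = 0.272) did not pass the test. LSS, which closes the rings to lanosterol, had 167, 179.7 and 167 CPM in the khellin libraries and 149, 159 and 159 CPM in the control libraries, all khellin libraries above all control libraries, with a log2 fold change of 0.14 (SE 0.0495, edgeR adjusted p = 0.0836).

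CYP51A1, the cytochrome that removes a methyl group from lanosterol, had 12.7, 13.5 and 15.2 CPM in the khellin libraries and 11.5, 10.7 and 8.63 CPM in the control libraries. The groups did not overlap, and CYP51A1 rose with a log2 fold change of 0.43 (SE 0.114, edgeR adjusted p = 0.0273). The call was lost with replicate number as a block (edgeR adjusted p = 0.0526) and without khellin replicate 2 or 3 or control replicate 2 (edgeR adjusted p of 0.0701, 0.121 and 0.0696). HSD17B7 (chromosome 1, 162790702 to 162812823, plus strand), a ketoreductase of the removal of the next methyl groups, had 34.4, 34.5 and 33.5 CPM in the khellin libraries and 25, 23.6 and 25.5 CPM in the control libraries. The khellin libraries were all near the same level and far above the controls. Its mean was 34.1 ± 0.591 CPM in khellin and 24.7 ± 1.0 CPM in control libraries (SD, n = 3 each), and it rose with a log2 fold change of 0.47 (SE 0.0594, edgeR adjusted p = 0.000753). Its pseudogene HSD17B7P2 was also called higher, with a log2 fold change of 0.58 (SE 0.114, edgeR adjusted p = 0.00755), and the sources used here do not give how reads were split between these copies.

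The remaining 6 sterol enzymes did not pass the test. MSMO1, the oxidase of the same methyl groups, had 135, 102 and 129 CPM in the khellin libraries and 158, 127 and 133 CPM in the control libraries, with a log2 fold change of -0.19 (SE 0.115, edgeR adjusted p = 0.283). Its khellin and control ranges overlapped, with library 2 the lowest of either group. TM7SF2, a sterol reductase, had a log2 fold change of 0.21 (SE 0.0849, edgeR adjusted p = 0.116), and EBP, the sterol isomerase, had one of 0.24 (SE 0.0836, edgeR adjusted p = 0.0775), with all khellin libraries above all control libraries. NSDHL, the dehydrogenase between MSMO1 and HSD17B7, had a value of 0.049 (SE 0.0588, edgeR adjusted p = 0.613). SC5D, the late desaturase, had -0.034 (SE 0.0905, edgeR adjusted p = 0.833). DHCR7, the last reductase before cholesterol, had 277, 297 and 281 CPM in the khellin libraries and 294, 288 and 311 CPM in the control libraries, overlapping, with a log2 fold change of -0.062 (SE 0.0469, edgeR adjusted p = 0.397).

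**Figure D2:**
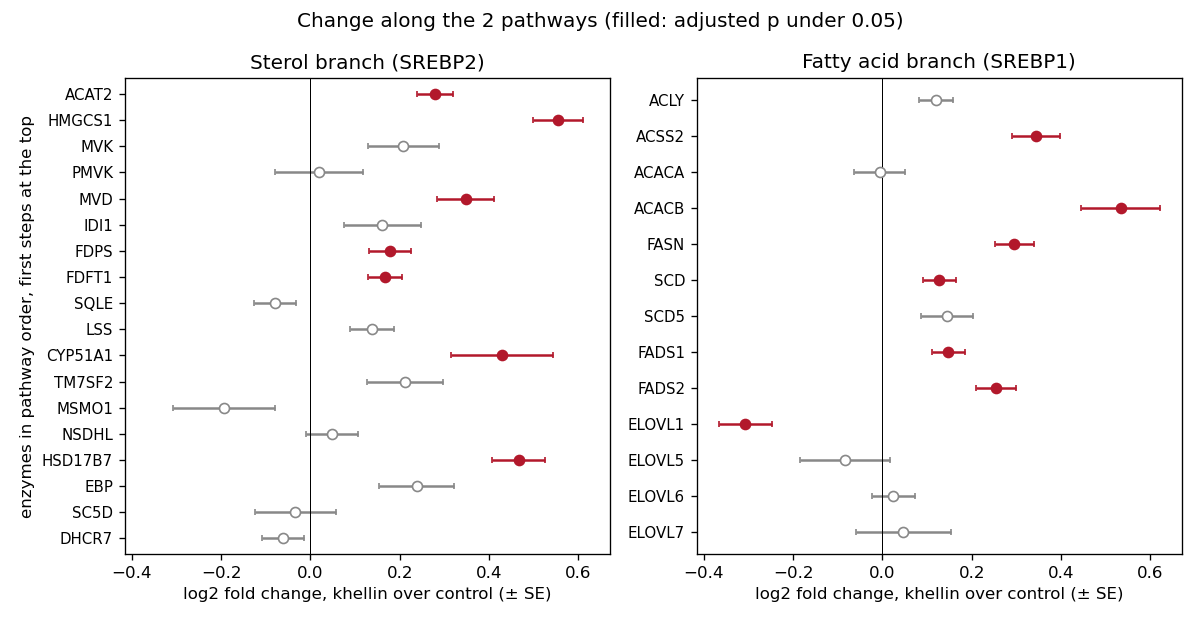
Log2 fold change, khellin over control, of each tested enzyme, with bars of 1 SE on either side, from edgeR, for the enzymes of the sterol branch (left) and the fatty acid branch (right). Enzymes are listed by pathway step, except that FADS1 stands before FADS2 and the elongases follow their numbers. Filled points passed the test. HMGCS1 stands highest at 0.55 and ELOVL1 lowest at -0.31.

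In the fatty acid branch, FASN, ACSS2 and ACACB rose, while ACLY and ACACA did not pass the test. Of 5 tested genes of fatty acid synthesis 3 rose and 0 fell, with a median log2 fold change of 0.30, and none was lower with DESeq2 or at an unadjusted p under 0.05. FASN (chromosome 17, 82078338 to 82098294, minus strand), the synthase that makes palmitate, had 655, 696 and 667 CPM in khellin libraries 1, 2 and 3, against 528, 564 and 552 CPM in control libraries 1, 2 and 3. The lowest khellin library lay above the highest control library by more than the spread within either group. Its mean was 673 ± 20.8 CPM in khellin and 548 ± 18.2 CPM in control libraries (SD, n = 3 each), and FASN rose with a log2 fold change of 0.30 (SE 0.0433, edgeR adjusted p = 0.00164). ACSS2, which makes acetyl-CoA from acetate, had 79, 85.2 and 80.4 CPM in the khellin libraries and 61.5, 66.5 and 64.7 CPM in the control libraries. These groups were also well apart, and ACSS2 rose with a log2 fold change of 0.34 (SE 0.0536, edgeR adjusted p = 0.00221). ACLY, which makes acetyl-CoA from citrate, had 531, 551 and 545 CPM in the khellin libraries and 504, 494 and 499 CPM in the control libraries, without overlap, and its log2 fold change of 0.12 (SE 0.0377, edgeR adjusted p = 0.0525) lay just outside the threshold.

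Of the 2 acetyl-CoA carboxylases, ACACB passed the test. ACACB, the form at the mitochondrial surface whose malonyl-CoA restrains fatty acid import, had 17.8, 16.2 and 17.8 CPM in the khellin libraries and 11.4, 13.4 and 11 CPM in the control libraries. Every khellin library exceeded every control library, and ACACB rose with a log2 fold change of 0.53 (SE 0.088, edgeR adjusted p = 0.00301). ACACA, the cytosolic form that feeds FASN, had 106, 111 and 109.6 CPM in the khellin libraries and 116, 112 and 101 CPM in the control libraries. Its control libraries reached both above and below the khellin libraries, and the log2 fold change of -0.0063 (SE 0.0568, edgeR adjusted p = 0.953) did not pass the test. Per kilobase, ACACA stood at 8.38 ± 0.196 CPM per kilobase in khellin and 8.42 ± 0.577 in control libraries, and ACACB at 1.19 ± 0.0641 CPM per kilobase in khellin and 0.823 ± 0.0853 in control libraries (SD, n = 3 each). ACACB thus rose at a level far below that of ACACA. THRSP, a lipogenic protein of liver and fat, had 1 count in 1 khellin library and 0 in the other 5 libraries and stood under the filter.

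Among the 8 desaturases and elongases 3 rose and 1 fell, with a median log2 fold change of 0.087. SCD, which puts the first double bond into saturated fatty acids, had 848, 846 and 851 CPM in khellin libraries 1, 2 and 3, against 793, 775 and 761 CPM in control libraries 1, 2 and 3. The groups were apart and SCD rose by little, with a log2 fold change of 0.13 (SE 0.0371, edgeR adjusted p = 0.039). This was the least stable of the calls: it was lost with RLE factors, without a filter on low counts, with DESeq2 and with a replicate block (adjusted p of 0.0623, 0.0624, 0.112 and 0.0756), and without khellin replicate 1, 2 or 3 or control replicate 2 (edgeR adjusted p of 0.137, 0.101, 0.149 and 0.132). FADS2, which starts the desaturation of polyunsaturated fatty acids, had 495, 519 and 507 CPM in the khellin libraries and 409.6, 421 and 444 CPM in the control libraries. It rose with a log2 fold change of 0.25 (SE 0.0442, edgeR adjusted p = 0.00395) and no overlap between the groups. FADS1, which acts later on the same chains, had 377, 379 and 374 CPM in the khellin libraries and 335, 341 and 343 CPM in the control libraries. FADS1 also separated by group and rose with a log2 fold change of 0.15 (SE 0.0372, edgeR adjusted p = 0.0221), but the call was lost with DESeq2 (adjusted p = 0.063) and without khellin replicate 1, 2 or 3 or control replicate 2 (edgeR adjusted p of 0.0982, 0.0771, 0.0917 and 0.0873). SCD5, the second stearoyl-CoA desaturase, had 51.3, 46.8 and 49.4 CPM in the khellin libraries and 46, 43.9 and 43.4 CPM in the control libraries, without overlap, with a log2 fold change of 0.14 (SE 0.0588, edgeR adjusted p = 0.118).

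Of the 4 elongases, ELOVL1 was the one called, and it fell. ELOVL1 (chromosome 1, 43363398 to 43368074, minus strand), which extends saturated very long chains, had 128, 124 and 121 CPM in khellin libraries 1, 2 and 3, against 146, 148 and 168 CPM in control libraries 1, 2 and 3. Every khellin library was below every control library, with control library 3 the highest. Its mean was 124 ± 3.78 CPM in khellin and 154 ± 11.9 CPM in control libraries (SD, n = 3 each), and ELOVL1 fell with a log2 fold change of -0.31 (SE 0.0594, edgeR adjusted p = 0.0069). ELOVL5, the elongase of polyunsaturated chains, had 319, 290.3 and 333 CPM in the khellin libraries and 391, 309 and 299 CPM in the control libraries, overlapping widely, with a log2 fold change of -0.084 (SE 0.10, edgeR adjusted p = 0.608). ELOVL6, which extends palmitate, had 0.025 (SE 0.0485, edgeR adjusted p = 0.77) and ELOVL7 had 0.047 (SE 0.107, edgeR adjusted p = 0.803).

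None of the 4 genes of activation and lipid assembly was called in either direction by edgeR's main test or DESeq2, and 1 of them, LPIN1, had an unadjusted p under 0.05. The length and GC correction called LPIN1 lower. LPIN1, a phosphatidate phosphatase, had 111, 108 and 105 CPM in the khellin libraries and 121, 120.4 and 113 CPM in the control libraries, all khellin libraries below all control libraries, with a log2 fold change of -0.13 (SE 0.0484, edgeR adjusted p = 0.0904). Of the acyl-CoA synthetases, which activate free fatty acids, ACSL1 had a value of -0.0057 (SE 0.0605, edgeR adjusted p = 0.959), ACSL3 of 0.13 (SE 0.0634, edgeR adjusted p = 0.172) and ACSL4 of -0.031 (SE 0.115, edgeR adjusted p = 0.882).

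The branches were then set side by side. In the sterol branch of 18 enzymes 7 rose and 0 fell, with a median log2 fold change of 0.17, and 14 values were above 0. In the fatty acid branch 13 of 14 genes were tested, 6 rose and 1 fell, with a median of 0.13, and 10 values were above 0. Called higher were thus 38.9% of the tested sterol enzymes and 46.2% of the tested fatty acid genes, beside 10.6% of all tested genes. Called lower were 0% and 7.69%, beside 8.82%. Over all 15865 tested genes 8002 values were above 0. None of the sterol enzymes was lower at an unadjusted p under 0.05, nor with DESeq2 or limma-voom. The length and GC correction called 9 sterol enzymes higher and 2 lower, SQLE and DHCR7. With 1 library left out, 4 sterol enzymes rose without khellin replicate 2, khellin replicate 3 or control replicate 2, and 11 without control replicate 3. The sterol branch took 2139, 2125 and 2155 CPM (per library total, without composition factors) in the khellin libraries, against 1921, 1875 and 1892 in the control libraries. The khellin libraries were higher in each case, and the ratio of means was 1.13. The fatty acid branch took 3778, 3845 and 3830 CPM in the khellin libraries, against 3411, 3374 and 3323 in the control libraries. All khellin libraries were again higher, and the ratio was also 1.13. With composition factors in the denominator the ratios were 1.09 for the sterol branch and 1.10 for the fatty acid branch. These sums have no test, since the genes were chosen with results known.

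**Figure D3:**
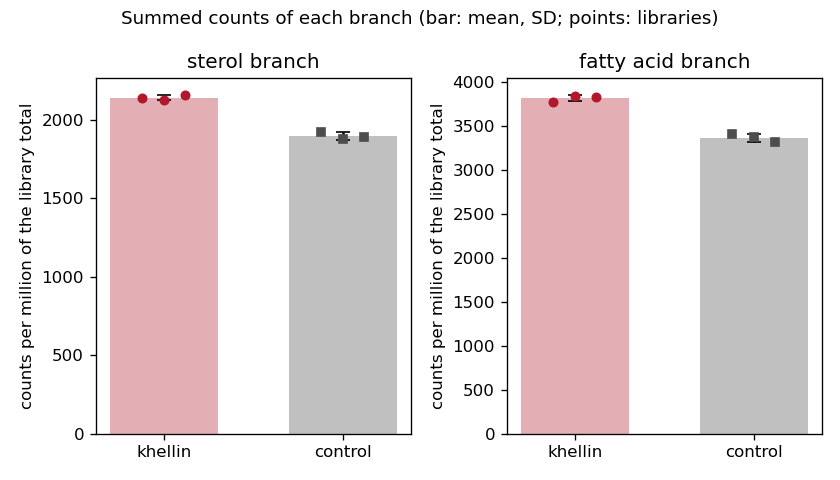
Summed counts of the 18 sterol branch enzymes and of the 14 fatty acid branch genes as CPM of the library total, with bars for the mean, whiskers for the SD of 3 libraries and points for the libraries, khellin left of control. In both branches the 3 khellin libraries lie above the 3 control libraries.

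Levels per kilobase of merged exons set the scale of these changes. SCD was the highest, at 158 ± 0.477 CPM per kilobase in khellin and 145 ± 2.98 in control libraries (SD, n = 3 each). ACLY followed at 104 ± 2.0 CPM per kilobase in khellin and 95.6 ± 0.974 in control libraries, then ELOVL5 at 82.4 ± 5.75 CPM per kilobase in khellin and 87.3 ± 13.3 in control libraries, whose groups overlapped. FASN stood at 71.8 ± 2.22 CPM per kilobase in khellin and 58.5 ± 1.95 in control libraries, and DHCR7 at 68.5 ± 2.52 CPM per kilobase in khellin and 71.5 ± 2.8 in control libraries, whose spreads overlap with one another in the khellin libraries. At the low end were ACACB, ELOVL7 at 2.21 ± 0.166 CPM per kilobase in khellin and 2.14 ± 0.284 in control libraries, and CYP51A1 at 3.86 ± 0.361 CPM per kilobase in khellin and 2.87 ± 0.411 in control libraries. Merged exons overstate the transcript length of genes with long alternative ends, so these levels are lower limits for such genes.

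**Figure D4:**
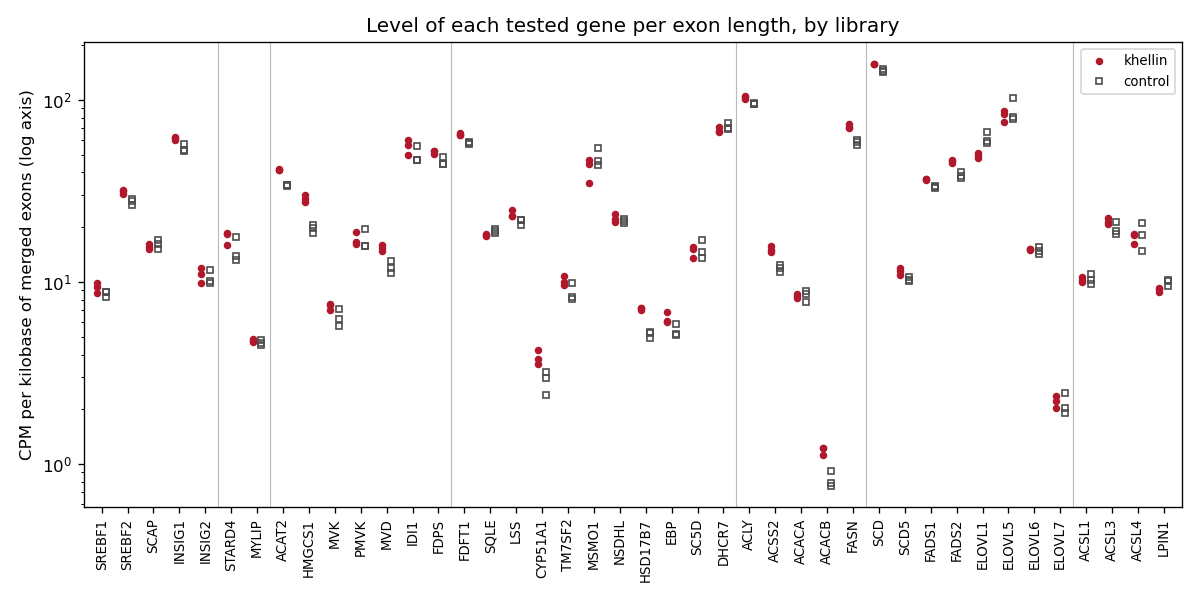
Level of each tested gene in CPM per kilobase of merged exons on a log axis, one point per library, grouped by part of the pathway, khellin left of control. SCD is the highest at 158 in khellin and 145 in control libraries, and ACACB the lowest at 1.19 and 0.823.

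The libraries also differed in a way the groups do not explain. Among the 26 genes of the list that did not pass the test, control library 1 was the highest of its group for 16 (61.5%, beside 38% of all tested genes). Khellin library 2 was the lowest of its group for 14 of them (53.8%, beside 37.9%). Over all 42 tested genes of the list these were 19 (45.2%) and 18 (42.9%), nearer the shares of all tested genes. Since the 26 genes were picked by the test on these same libraries, their order is not independent of it. ELOVL5, IDI1, STARD4 and MSMO1 had their highest control value in library 1 and their lowest khellin value in library 2. The part of this order in the results above was not tested.

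Some of these genes share their place in the genome with another. Of the 44, 23 overlap another listed gene, 19 of them on the opposite strand and 7 on the same strand, and the sources used here do not give whether the counting used strand. FADS1 and FADS2 overlap each other over 29692 bases, so reads of the pair may not be told apart. CYP51A1 overlaps AKAP9, which had a mean of 1471 counts in khellin and 1323 in control libraries, over 25687 bases. ACACB shares 10139 bases on the same strand with UNG. UNG had a mean of 3118 counts in khellin and 3450 in control libraries, with a log2 fold change of -0.15 (SE 0.052, edgeR adjusted p = 0.0774). ACACB also shares 9008 bases on the same strand with an unnamed long noncoding RNA gene. That gene had a mean of 7.3 counts in khellin and 0.7 in control libraries. The part of shared reads in the change of ACACB was not tested.

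Genes around the pathway were counted from further lists, to be read beside the shares over all tested genes, 10.6% called higher and 8.82% lower. Of 17 genes of SREBP processing and turnover 1 rose and 2 fell, with a median log2 fold change of -0.0095. That is 17.6% called, near the 19.4% called over all tested genes. SEC24D, a coat protein of the vesicles that carry SCAP, rose with a log2 fold change of 0.26 (SE 0.0498, edgeR adjusted p = 0.0066). SPRING1, a cofactor of the SREBP protease, fell with a log2 fold change of -0.22 (SE 0.0482, edgeR adjusted p = 0.0122), a call lost without khellin replicate 1 or 2 or control replicate 2 (edgeR adjusted p of 0.0651, 0.0569 and 0.0559). UBE2G2, a ubiquitin-conjugating enzyme of the endoplasmic reticulum, fell with a log2 fold change of -0.17 (SE 0.0472, edgeR adjusted p = 0.0317), which was lost in 6 of 14 settings. Of 14 genes of isoprenoid use 1 rose and 4 fell, with a median of -0.13. RABGGTB, a subunit of the Rab prenyltransferase, fell with a log2 fold change of -0.35 (SE 0.0545, edgeR adjusted p = 0.00212). COQ2, a prenyltransferase of coenzyme Q synthesis, rose with a log2 fold change of 0.40 (SE 0.0691, edgeR adjusted p = 0.00382).

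Among 6 tested genes of the LXR receptors and sterol export 2 rose and 0 fell, with a median log2 fold change of 0.12. None was lower at an unadjusted p under 0.05 or with DESeq2. NR1H2, ABCA1, LPCAT3 and SMPDL3A did not pass the test (edgeR adjusted p of 0.947, 0.804, 0.367 and 0.821), and ABCG1 stood under the filter. NR1H3, which encodes the sterol-sensing receptor LXR-alpha, stood at 12.4 ± 1.13 CPM in khellin and 9.11 ± 0.679 CPM in control libraries (SD, n = 3 each) and rose with a log2 fold change of 0.45 (SE 0.0931, edgeR adjusted p = 0.00954). It was lost without khellin replicate 3 or control replicate 2 (edgeR adjusted p of 0.0522 and 0.0509). ABCA2, a lipid transporter of the lysosome, rose with a log2 fold change of 0.28 (SE 0.0517, edgeR adjusted p = 0.00578). Of 16 tested genes of sterol uptake, transfer and esterification 3 rose and 2 fell, with a median of -0.047. CAV1, the coat protein of caveolae, rose with a log2 fold change of 0.32 (SE 0.054, edgeR adjusted p = 0.0032), and SCARB1, the receptor of high-density lipoprotein, fell with a log2 fold change of -0.28 (SE 0.0549, edgeR adjusted p = 0.0070). GRAMD1B, which moves sterol out of the plasma membrane, rose at a very low level, 1.06 ± 0.168 CPM in khellin and 0.449 ± 0.169 CPM in control libraries (SD, n = 3 each), with a log2 fold change of 1.24 (SE 0.275, edgeR adjusted p = 0.0129). This was lost without khellin replicate 1 or control replicate 2 (edgeR adjusted p of 0.057 and 0.056).

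Among the called genes of fat storage and burning falls outnumbered rises, while the medians of both lists lay near 0. Of 17 tested genes of glycerolipid assembly and lipid droplets 1 rose (5.88%) and 4 fell (23.5%), beside 10.6% and 8.82% of all tested genes. Their median log2 fold change was -0.0085, and 7 values were above 0. PLIN2, the coat protein of lipid droplets, had 110.3, 112 and 113 CPM in the khellin libraries and 149, 153 and 162 CPM in the control libraries. All khellin libraries were far below all control libraries, and PLIN2 fell with a log2 fold change of -0.47 (SE 0.0466, edgeR adjusted p = 0.000194). MGLL, a lipase of monoacylglycerol, fell with a log2 fold change of -0.46 (SE 0.0484, edgeR adjusted p = 0.000257), and ABHD5, the activator of the droplet lipase, with one of -0.51 (SE 0.0707, edgeR adjusted p = 0.00123). Of 20 genes of fatty acid oxidation 2 rose (10%) and 5 fell (25%), with a median of -0.026 and 9 values above 0. SLC25A20, which carries acylcarnitine into mitochondria, fell with a log2 fold change of -0.48 (SE 0.0655, edgeR adjusted p = 0.00108), and CPT1A, the malonyl-CoA-sensitive gate of that import, with one of -0.23 (SE 0.0408, edgeR adjusted p = 0.00414). CPT1C, its relative known mainly from neurons, rose with a log2 fold change of 0.61 (SE 0.0951, edgeR adjusted p = 0.0022). The other falls of these lists, those of AGPAT5, HADHB, ACADVL and DECR1, were each lost with 1 library or another left out. So were the other rises, those of LPIN3 and EHHADH.

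Of 19 tested genes of the supply of acetyl-CoA and NADPH, a list that also holds further elongation enzymes, carriers of fatty acids and the ChREBP factors, 5 rose and 6 fell, with a median log2 fold change of -0.043. MLXIPL, the gene of the sugar-sensing factor ChREBP, a known activator of lipogenic genes in liver, had 7.14, 7.6 and 7.29 CPM in the khellin libraries and 2.74, 2.79 and 3.54 CPM in the control libraries. The khellin libraries were all above the control libraries, and MLXIPL rose with a log2 fold change of 1.28 (SE 0.114, edgeR adjusted p = 0.000101). IDH1, a cytosolic source of NADPH, rose with a log2 fold change of 0.35 (SE 0.0396, edgeR adjusted p = 0.00041). FABP5, a fatty acid carrier, fell with a log2 fold change of -0.48 (SE 0.0571, edgeR adjusted p = 0.000522). The calls on PLIN2, MGLL, ABHD5, SLC25A20, CPT1A, CPT1C, MLXIPL, IDH1 and FABP5 held under all alternative settings that were run.

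**Figure D5:**
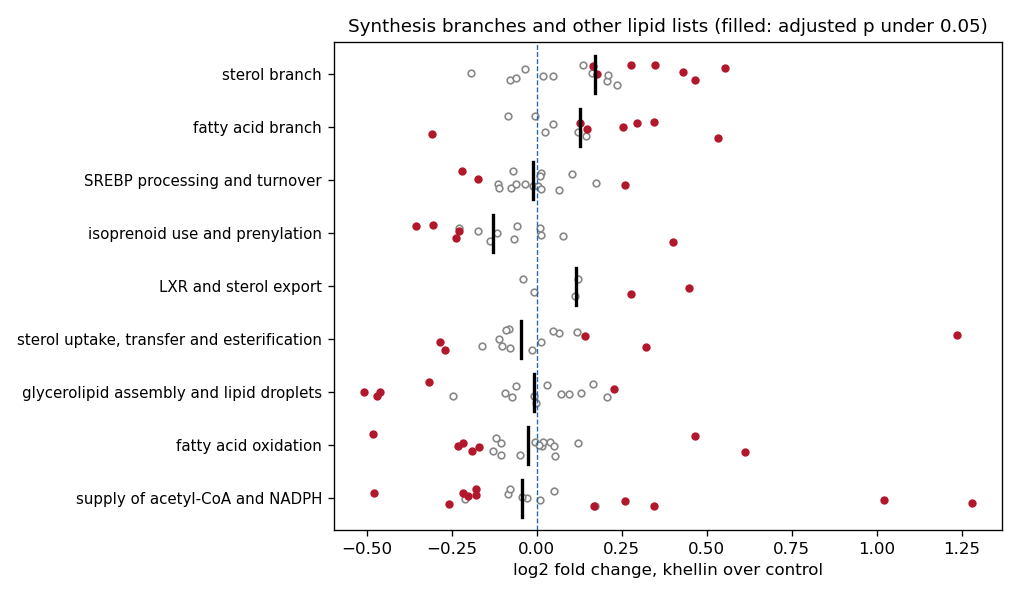
Log2 fold change, khellin over control, of every tested gene of the enzyme branches and the other lists, one point per gene, filled where edgeR's adjusted p was under 0.05. Black bars mark each list's median, 0.17 for the sterol and 0.13 for the fatty acid branch, and the dashed line the median of all tested genes.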

How the data were processed

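Polyadenylated RNA was extracted with TRIzol and sequenced from VAHTS Universal V6 libraries, per the labels' protocols, in 3 khellin and 3 control libraries grouped by sample title. The deposited values are raw counts of reads per gene, which the authors made with fastp, HISAT2 and HTSeq, per the submitters' processing notes. Neither strand setting nor build nor annotation is given in the sources used here. GRCh38 was inferred, since 25335 of the 25378 identifiers also found in GENCODE release 29 overlapped their positions there. All 44 genes matched that release in position and strand.

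From these counts, CPM with TMM factors and edgeR's quasi-likelihood test (robust, group only, two-sided) were computed on the 15865 genes kept by filterByExpr. P-values were adjusted by Benjamini-Hochberg over these genes, with a threshold of 0.05. SE was taken as the absolute log2 fold change over the square root of F. The biological coefficient of variation was 6.95%. Exact permutation tests had a smallest p of 0.1. Totals of 28631578 to 30956610 counts put the floor of 3 counts at 0.0969 to 0.105 CPM, here per library total without TMM factors. Libraries of a group differed by more than sampling noise, with a chi-square per degree of freedom of 1.91 to 20.8. Levels per kilobase used merged exons of GENCODE 29. Promoter windows came from RefSeq, GRCh38.p14.

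The genes and lists were chosen with earlier results of these data known. The rule for naming gave values per library to called genes, the 5 regulators and rate-setting enzymes, and took from each other list the called genes with the 3 smallest p-values. Values per library of further genes were added after they were seen. A gene taken by this rule is left out here. The alternatives were RLE factors, library size only, no filter, a minimum of 1 CPM in 3 libraries, limma-voom, DESeq2, an adjusted p under 0.01, a replicate block and each library left out, plus a smooth correction for length and GC content added after the data were examined. On simulated data for khellin against control with 15675 genes tested, the edgeR test found 81.6% of the 1.5-fold rises, 75.0% of the 1.5-fold falls, 94.0% of the 2-fold rises and 91.7% of the 2-fold falls, and 6.70% of its calls fell on unchanged genes. The largest change among the lipid synthesis genes was 1.47-fold, so these rates do not give how often changes of their size are found. The simulation changed 200 genes, where 3080 were called in the data, so the share of calls on unchanged genes may differ too. Software was Python 3.11.15 with SciPy 1.17.1, pandas 2.3.3 and matplotlib 3.10.9, and R 4.3.3 with mgcv 1.9.3, DESeq2 1.42.0, limma 3.58.1 and edgeR 4.0.16.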

Additional observations from a re-analysis of the deposited data

How the results depend on the processing

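Of the 42 tested genes, log2 fold changes kept their direction and their side of the threshold in 502 of 588 combinations of gene and setting. At an adjusted p under 0.01, 808 genes were higher and 608 lower over all genes, with 8 of the lipid synthesis genes and 4 sterol enzymes higher. With 1 library left out, 919 to 1990 genes were higher and 643 to 1722 lower. Among the lipid synthesis genes 8 to 20 were then higher and 1 to 2 lower, and among sterol enzymes 4 to 11 were higher. Among the left-out libraries, the fewest calls over all genes came without khellin replicate 3. The length and GC correction called 2104 genes higher and 3056 lower, among them 20 lipid synthesis genes higher and 5 lower, and 9 sterol enzymes higher and 2 lower; the cause was not tested. Scaling by library size only gave 2208 higher and 986 lower genes, against 1681 and 1399 as reported, and moved the median over all genes to 0.046. DESeq2 gave 1279 and 1434. With TMM factors the branch ratios were 1.09 (sterol) and 1.10 (fatty acid), since these factors change the denominator. The SREBF1 to SREBF2 difference was -0.11 to -0.046 with 1 library left out.

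Replicate numbers did not pair the libraries, with correlations of deviations of 0.197, 0.0144 and -0.163 for numbers 1, 2 and 3. With the replicate block 1533 genes were higher and 1282 lower, and 13 lipid synthesis genes were higher and 1 lower; CYP51A1 and SCD lost their calls.

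Signs turned for 10 genes, none of them called. With library size only the log2 fold change was 0.0032 for SCAP, 0.0097 for SC5D, 0.0375 for ACACA, 0.0382 for ACSL1 and 0.012 for ACSL4. The filter of 1 CPM gave 0.0004 for ACACA and 0.0012 for ACSL1, and the length and GC correction gave -0.0025 for ELOVL6. With 1 library left out, values ran over -0.0855 to 0.0024 for SCAP, -0.0073 to 0.138 for INSIG2, -0.0506 to 0.1266 for PMVK, -0.1092 to 0.0665 for SC5D, -0.0622 to 0.0337 for ACACA. They ran over -0.1575 to 0.0468 for ELOVL5, -0.0098 to 0.0606 for ELOVL6, -0.0285 to 0.1577 for ELOVL7, -0.0502 to 0.042 for ACSL1 and -0.1566 to 0.0963 for ACSL4.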

Other observations

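Other called genes of the surrounding lists were named after their values were seen. Fatty acid oxidation enzymes gave both directions: EHHADH, a peroxisomal enzyme, rose with a log2 fold change of 0.47 (SE 0.0995, edgeR adjusted p = 0.0108), while HADHB, a subunit of the mitochondrial trifunctional protein, fell with a log2 fold change of -0.22 (SE 0.0445, edgeR adjusted p = 0.00895), and ACADVL, the very long-chain acyl-CoA dehydrogenase, with one of -0.19 (SE 0.0528, edgeR adjusted p = 0.0320). Among NADPH sources, PGD, an enzyme of the pentose phosphate pathway, fell with a log2 fold change of -0.22 (SE 0.0562, edgeR adjusted p = 0.0252) and the malic enzyme ME1 with one of -0.26 (SE 0.0685, edgeR adjusted p = 0.0272). NPC2, a sterol carrier of the lysosome, fell with a log2 fold change of -0.27 (SE 0.0670, edgeR adjusted p = 0.0208). MLXIP, the relative of MLXIPL, fell with a log2 fold change of -0.18 (SE 0.0428, edgeR adjusted p = 0.0182), where MLXIPL rose. HACD2, a dehydratase of the elongation cycle, rose with a log2 fold change of 0.26 (SE 0.0655, edgeR adjusted p = 0.0221), while ELOVL1 fell. Of these 8 calls, all were lost on leaving out 1 library: HADHB without khellin replicate 3 and EHHADH without control replicate 2 (edgeR adjusted p of 0.0559 and 0.0524), and the other 6 without several single libraries.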
